A study of Mus musculus with 8 samples.

Results

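Cells make cholesterol from acetyl-CoA through the mevalonate pathway, take it up from lipoproteins, move it between membranes, store it as esters and export it. SREBP transcription factors, which SCAP carries to the Golgi for cleavage and INSIG proteins hold back in the endoplasmic reticulum, raise the genes of synthesis when membrane sterol is low. LXR nuclear receptors bind oxysterols when sterol is plentiful and raise genes of export, and dividing T-lineage cells are known to need sterol for new membrane. The 34 genes described here cover synthesis (18 genes), SREBP and its control (5), LXR and export (4), intracellular transport and storage (4) and fatty acid synthesis (3), as a list of names. Of 55359 genes in the tables, all 34 were found, and all 34 reached an FPKM (fragments per kilobase of gene, scaled to the library) of at least 1 in at least 4 samples, which admitted 12337 genes to the test.

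RNA was measured in 8 samples of mouse thymus cells taken at 5 weeks of age and sorted as CD4 and CD8 double positive (DP) thymocytes, labelled TCRb-/lo-int. The 4 controls (replicates 1 to 4) had the genotype LSL-Sting1-N153S/+, a conditional allele of STING with the gain-of-function change N153S behind a stop cassette. The 4 Lck-cre samples (replicates 5 to 8) had the genotype LSL-Sting1-N153S;Lck-cre, in which Cre is driven by the Lck promoter, active in T-lineage cells. Replicates 1 and 5 were female and the rest male. Without a group that carries Lck-cre alone, an effect of Cre and an effect of the STING allele cannot be told apart. The labels do not say whether samples came from separate animals, and the p-values speak only for the spread among these samples.

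Sting1 checked the labels, with 15.3, 11.6, 13.4 and 11.9 FPKM in the controls and 221, 85.4, 130 and 232 FPKM in Lck-cre replicates 5 to 8, a log2 change of 3.52 (limma, adjusted p = 0.00213). Lck-cre replicate 6 had the lowest Sting1 of its group. The 10 DP markers summed to 5743 to 6161 FPKM in the controls and 4456 to 5732 FPKM in Lck-cre. All 10 had a log2 change below 0 (median -0.20), and 4 (Cd4, Rag1, Rag2 and Themis) fell, beside 10.4% of all genes. In 5 of the 10 every Lck-cre sample was below every control, beside 12.3% of all genes. Macrophage markers summed to 10.6 to 13.5 and 12.3 to 17.1 FPKM, with 8 of 10 under 1 FPKM in every sample. Of the 2 that were tested, 1 rose and 1 fell. Dendritic cell markers summed to 3.08 to 4.93 and 7.22 to 15.9 FPKM, with 5 of 8 under 1 FPKM and H2-Aa, H2-Ab1 and Cd74 higher in Lck-cre. Of 16 genes of S phase and mitosis, 15 rose, with a median log2 change of 0.62. The part of these cell type markers and of the proliferation genes in the results was not tested. In bulk RNA, fewer cells of a type and less RNA per cell cannot be told apart. Across all genes tested 3180 of 12337 were called (25.8%) at a Benjamini-Hochberg adjusted p under 0.05, 1901 higher in Lck-cre and 1279 lower. On TPM, which fixes each sample's sum, the minimum of 1 admitted 14015 genes, of which 1337 were higher and 2117 lower. With TPM on the same 12337 genes, 1300 were higher and 2067 lower.

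Of the 34 cholesterol genes 8 were called (23.5%), beside 25.8% of all genes, so the share that passed was close to the background. Mvd, Idi1, Cyp51, Ebp, Fasn and Acaca rose (6 of 34, 17.6%, beside 15.4% of all genes), and Abcg1 and Mylip fell (2 of 34, 5.88%, beside 10.4%). With no adjustment, 13 of the 34 were higher (38.2%, beside 23.4% of all genes) and 6 lower (17.6%, beside 17.97%) at p under 0.05. The log2 change was above 0 in 24 and below 0 in 10, with a median of 0.16, beside 0.01 over all genes tested and 52.0% of them above 0. In 9 genes the groups did not overlap. All Lck-cre samples lay above all controls for Mvd, Idi1, Lss, Nsdhl, Hsd17b7, Ebp and Scap (7 of 34, beside 17.1% of all genes) and below them for Sc5d and Mylip (2 of 34, beside 12.3%), against 29.4% of all genes in either direction. On TPM 3 genes were called higher (Mvd, Idi1 and Ebp) and 5 lower (Abcg1, Mylip, Insig2, Sc5d and Scd2). The counts were the same on the genes that passed the FPKM filter (3 higher and 5 lower). After median-of-ratios scaling 4 of the 34 were higher and 3 lower, beside 1664 higher and 1500 lower of all 12337 genes.

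**Figure D1:**
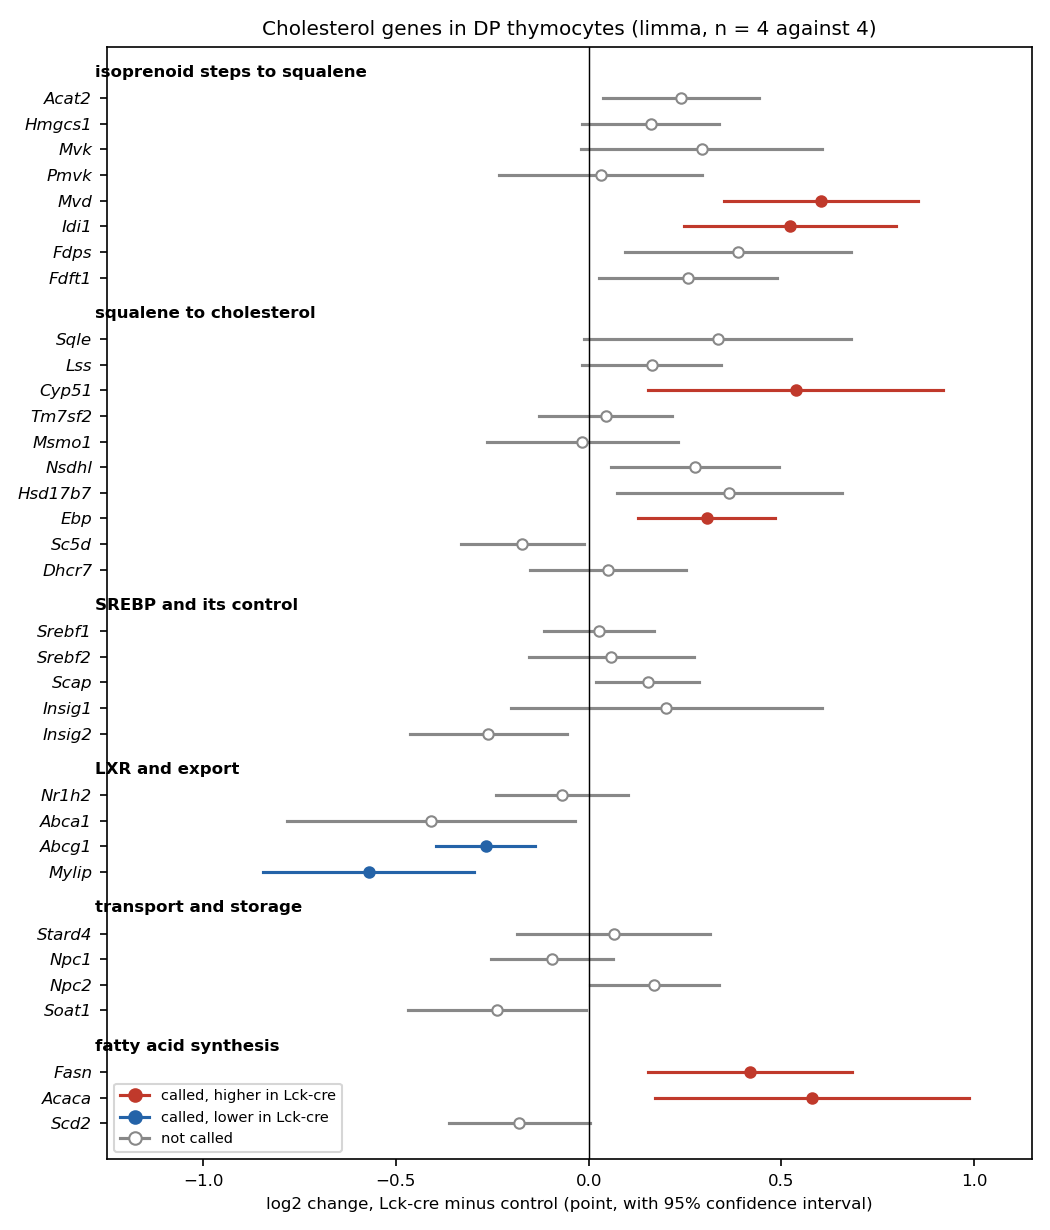
Log2 change (Lck-cre minus control, horizontal axis, on log2(FPKM + 0.5)) of the 34 cholesterol genes, grouped by role, with the 95% confidence interval of limma (4 samples in each group). Filled points passed an adjusted p of 0.05: Mvd, Idi1, Cyp51, Ebp, Fasn and Acaca lie to the right of 0 and Abcg1 and Mylip to the left.

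The call of each of the 8 genes ended without control replicate 1 or without Lck-cre replicate 5, and with males only. Sex is a term of the fit, so leaving out either female leaves 3 males against 3 males. Under each of these 3 settings 0 of 34 genes passed in either direction in limma (5 higher and 5 lower at an unadjusted p under 0.05). The sign of the change was kept in 32 of 34. For all genes, neither the share at an unadjusted p under 0.05 nor the share that kept its sign was counted under these settings. These member counts therefore have no background beside them. Without Lck-cre replicate 6, 9 of the 34 rose and 3 fell, without control replicate 4, 2 rose and 3 fell. Without control replicate 2 or Lck-cre replicate 7, 2 rose and 2 fell. Over all genes, 2193 of 12256 rose and 1672 fell without Lck-cre replicate 6. Without control replicate 4, 1303 of 12242 rose and 765 fell, and without control replicate 2, 834 of 12233 rose and 375 fell. Without Lck-cre replicate 7 it was 1104 and 673 of 12250. With males only, 407 of the 12089 genes then tested rose and 208 fell.

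The sequences around the start sites of the genes are shown first, for the DNA elements through which SREBP and LXR are known to act. RefSeq windows of 250 bases before to 50 bases after the start (build GRCm38.p6) were found for 27 of the 34 genes. Motifs were searched on both strands. A core of the sterol regulatory element, TCACNCCAC, stood in 1 of the 27, Hmgcs1, beside 1.44% of 27025 genes with a window. An LXR direct repeat, spelled as GGTNA and GGTCA with 5 bases of any kind between them, stood in 3 of the 27 (Abca1, Fasn and Srebf1), beside 0.226% of all genes. The CCAAT box, bound by NF-Y, stood in 22 of the 27 (81.5%), beside 41.1% of all genes and 43.8% of the 8394 tested genes with a window. Among the SREBP targets it stood in 17 of 19 (89.5%). The GC box GGGCGG stood in 23 of 27 (85.2%), beside 38.2% of all genes and 69.8% of tested genes, and the E-box CACGTG in 6 of 27, beside 8.09% and 12.4%. The patterns were spelled with the sequences in view, a match is a description of letters, and no match says only that these letters are not in this window.

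The stretch of Hmgcs1 (chr13:119690101-119690340, plus strand, GRCm38.p6) is printed because it holds the only sterol regulatory element found. Capitals mark that element, 137 bases before the start, and 3 CCAAT boxes on the opposite strand (ATTGG).
Hmgcs1: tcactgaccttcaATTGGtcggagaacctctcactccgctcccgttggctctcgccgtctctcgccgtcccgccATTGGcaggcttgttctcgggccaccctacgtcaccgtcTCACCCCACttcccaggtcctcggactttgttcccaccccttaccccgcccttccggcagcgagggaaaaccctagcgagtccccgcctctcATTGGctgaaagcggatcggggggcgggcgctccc

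Stretches before the starts of 3 sterol enzymes that rose, Mvd (chr8:122443423-122443502, minus strand), Idi1 (chr13:8885541-8885605, plus strand) and Cyp51 (chr5:4104698-4104746, minus strand), follow with each CCAAT box in capitals on either strand. Mvd and Idi1 each hold a pair of boxes within 60 bases of the start, and Cyp51 holds 1. Boxes also stood in genes that did not rise. They lay 173, 120, 67, 50 and 14 bases before the start of Mvk and 160, 96 and 55 before that of Msmo1. In Mylip, which fell, they lay 190, 108 and 67 bases before it.
Mvd: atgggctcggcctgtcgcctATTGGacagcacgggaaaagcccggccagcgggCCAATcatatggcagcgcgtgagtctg
Idi1: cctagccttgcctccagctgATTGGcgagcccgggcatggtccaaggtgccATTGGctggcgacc
Cyp51: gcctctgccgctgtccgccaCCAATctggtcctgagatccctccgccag

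The LXR direct repeats are printed from Abca1 (chr4:53159928-53159982, minus strand), Fasn (chr11:120824738-120824792, minus strand) and 1 of the 3 listed starts of Srebf1 (chr11:60210619-60210673, minus strand). Capitals mark the repeat, which has that spelling on the opposite strand and lies 67, 225 and 182 bases before the start. The repeats of Abca1 and Fasn have the same letters, and that of Srebf1 does not.
Abca1: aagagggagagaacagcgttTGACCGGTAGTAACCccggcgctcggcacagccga
Fasn: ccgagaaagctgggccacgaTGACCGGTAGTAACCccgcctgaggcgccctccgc
Srebf1: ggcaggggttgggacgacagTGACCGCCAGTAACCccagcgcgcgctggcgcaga

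The first 8 enzymes carry acetyl-CoA units through mevalonate and the isoprenoids to squalene. All 8 had a log2 change above 0 (median 0.28), beside 52.0% of all genes tested, and that of Pmvk changed sign in 5 of 19 alternatives. Of the 8, 2 rose, Mvd and Idi1 (25.0%, beside 15.4% of all genes). Mvd (ENSMUSG00000006517.6, minus strand of chromosome 8 at 123160340 to 123170161 in the files' coordinates, whose build is not named), which decarboxylates diphosphomevalonate to isopentenyl diphosphate, stood at 7.97, 8.45, 8.15 and 9.40 FPKM in the controls and at 14.6, 10.5, 13.2 and 14.6 FPKM in Lck-cre replicates 5 to 8. Every Lck-cre sample was above every control, and Lck-cre replicate 6 was nearest to them. The mean went from 8.49 ± 0.64 to 13.2 ± 1.91 FPKM (SD, n = 4), 1.56-fold, and the log2 change was 0.60 (95% interval 0.35 to 0.85, adjusted p = 0.00994 in limma). Without either female its log2 change was 0.53, with an adjusted p of 0.0512 or 0.0513.

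Idi1 (ENSMUSG00000058258.15, plus strand of chromosome 13 at 8935537 to 8942487), which isomerizes isopentenyl diphosphate into the allylic partner that isoprenoid chains start from, had 6.82, 8.67, 10.5 and 10.4 FPKM in the controls. The Lck-cre samples had 13.3, 11.3, 14.4 and 13.7 FPKM. The groups did not overlap, control replicate 1 was the lowest of all and Lck-cre replicate 6 the lowest of its group. The mean was 9.11 ± 1.75 FPKM in the controls and 13.2 ± 1.30 FPKM in Lck-cre (SD, n = 4), 1.44-fold (log2 change 0.52, interval 0.25 to 0.80, adjusted p = 0.0177 in limma). Its call also ended without control replicate 2 (adjusted p = 0.0588, log2 change 0.48), while without either female the log2 change was 0.39.

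Fdps, which makes farnesyl diphosphate at the branch to sterols, dolichol, ubiquinone and prenylated proteins, had 20.3, 21.5, 31.0 and 28.9 FPKM in the controls and 31.2, 29.2, 38.7 and 33.1 FPKM in Lck-cre. Only Lck-cre replicate 6 lay within the range of the controls, and the log2 change of 0.39 missed the threshold (adjusted p = 0.0558 in limma). It passed without control replicate 3 or without Lck-cre replicate 6 (adjusted p = 0.0353 and 0.0262). Acat2, the cytosolic thiolase that opens the pathway, went from 14.9 ± 2.04 to 17.6 ± 2.12 FPKM (log2 change 0.24, adjusted p = 0.0759), passing without Lck-cre replicate 6 (0.0178). Its close copy Acat3, an enzyme gene of nearly the same sequence, rose from 1.89 ± 0.258 to 2.83 ± 0.415 FPKM (adjusted p = 0.0271), and how reads were shared between the copies is not known, so the value of Acat2 is uncertain.

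Hmgcs1, the synthase that condenses acetoacetyl-CoA with acetyl-CoA, had 11.9, 14.8, 16.3 and 15.04 FPKM in the controls and 15.3, 15.2, 17.8 and 16.5 FPKM in Lck-cre. The groups overlapped, and the log2 change was 0.16 (adjusted p = 0.156). The kinases that phosphorylate mevalonate in turn, Mvk and Pmvk, had log2 changes of 0.29 and 0.03 (adjusted p = 0.142 and 0.864), and Fdft1, squalene synthase, had 0.26 (adjusted p = 0.0911). Without control replicate 3 Mvk and Fdft1 passed (adjusted p = 0.0282 and 0.0424 in limma). Fdft1 overlaps Ctsb by 774 bases on the opposite strand, and no source used here says whether counting used strand.

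The later 10 enzymes turn squalene into lanosterol and remove its extra methyl groups, move its double bond and reduce it to cholesterol. Of these 2 of 10 rose, Cyp51 and Ebp, beside 15.4% of all genes, and none fell, beside 10.4%, with a median log2 change of 0.22. With no adjustment, 4 of 10 were higher and 1 lower at p under 0.05, beside 23.4% and 17.97% of all genes. Cyp51 (ENSMUSG00000001467.6, minus strand of chromosome 5 at 4131145 to 4154746), the lanosterol demethylase, had 3.41, 5.13, 6.83 and 6.72 FPKM in the controls and 8.40, 6.74, 8.97 and 7.97 FPKM in Lck-cre. Lck-cre replicate 6 lay between the upper controls, and control replicate 1 was the lowest sample. The mean went from 5.52 ± 1.61 to 8.02 ± 0.947 FPKM (SD, n = 4), 1.45-fold, with a log2 change of 0.54 (interval 0.15 to 0.92, adjusted p = 0.0459 in limma).

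The call of Cyp51 ended in 13 of 19 alternatives (adjusted p = 0.0529 to 0.166), among them TPM, no sex term and leaving out control replicate 1, 2 or 4 or Lck-cre replicate 5, 7 or 8, and without either female its log2 change was 0.32. It shares 166 bases with Akap9 on the opposite strand, whose mean was 6.83 FPKM in the controls and 4.81 FPKM in Lck-cre. Ebp (ENSMUSG00000031168.15, minus strand of chromosome X at 8051568 to 8059751), the sterol isomerase, had 16.7, 15.5, 19.0 and 15.9 FPKM in the controls and 20.01, 21.7, 21.7 and 19.8 FPKM in Lck-cre. All Lck-cre samples were above all controls, with control replicate 3 the nearest. The mean went from 16.8 ± 1.56 to 20.8 ± 1.04 FPKM (SD, n = 4), 1.24-fold (log2 change 0.31, interval 0.13 to 0.48, adjusted p = 0.0237 in limma). That call ended in 7 of 19 alternatives (adjusted p = 0.0624 to 0.0755), among them leaving out control replicate 1, 2 or 4 or Lck-cre replicate 5 or 7.

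In 3 more of these enzymes every Lck-cre sample was above every control without passing the test. With Ebp that made 4 of the 10 later enzymes, beside 17.1% of all genes, and 1 of the 10 lay below, beside 12.3%. Nsdhl, a sterol dehydrogenase of the demethylation steps, had 6.26, 5.85, 7.50 and 7.62 FPKM against 8.29, 7.999, 8.76 and 8.15 FPKM (log2 change 0.28, adjusted p = 0.0622). Hsd17b7, the ketoreductase of the same steps, was the lowest of the 34 genes, at 1.08 ± 0.101 and 1.55 ± 0.257 FPKM (log2 change 0.36, adjusted p = 0.0652, and 0.0207 without Lck-cre replicate 6). Lss, lanosterol synthase, had 4.18 ± 0.272 and 4.73 ± 0.192 FPKM (log2 change 0.16, adjusted p = 0.153). Sc5d, the lathosterol desaturase, lay the other way, with 8.82, 9.17, 9.59 and 9.65 FPKM in the controls and 8.70, 8.24, 7.85 and 8.02 FPKM in Lck-cre. All its Lck-cre samples were below all controls (log2 change -0.17, adjusted p = 0.098, and 0.0461 on TPM).

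Sqle, squalene epoxidase, had 5.82, 8.28, 11.3 and 10.9 FPKM in the controls and 11.3, 10.1, 12.6 and 10.9 FPKM in Lck-cre. Control replicates 1 and 2 were below the other samples, which overlapped, and the log2 change was 0.33 (adjusted p = 0.132). Dhcr7, which completes cholesterol in its last reduction, had the highest level of the 18 enzymes, at 36.5 ± 2.52 and 38.0 ± 5.54 FPKM (log2 change 0.05, interval -0.15 to 0.25). Msmo1, the methyl oxidase, and Tm7sf2, a sterol reductase, had log2 changes of -0.02 and 0.04 (adjusted p = 0.927 and 0.696). Tm7sf2 shares 532 bases with Vps51 on the same strand.

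**Figure D2:**
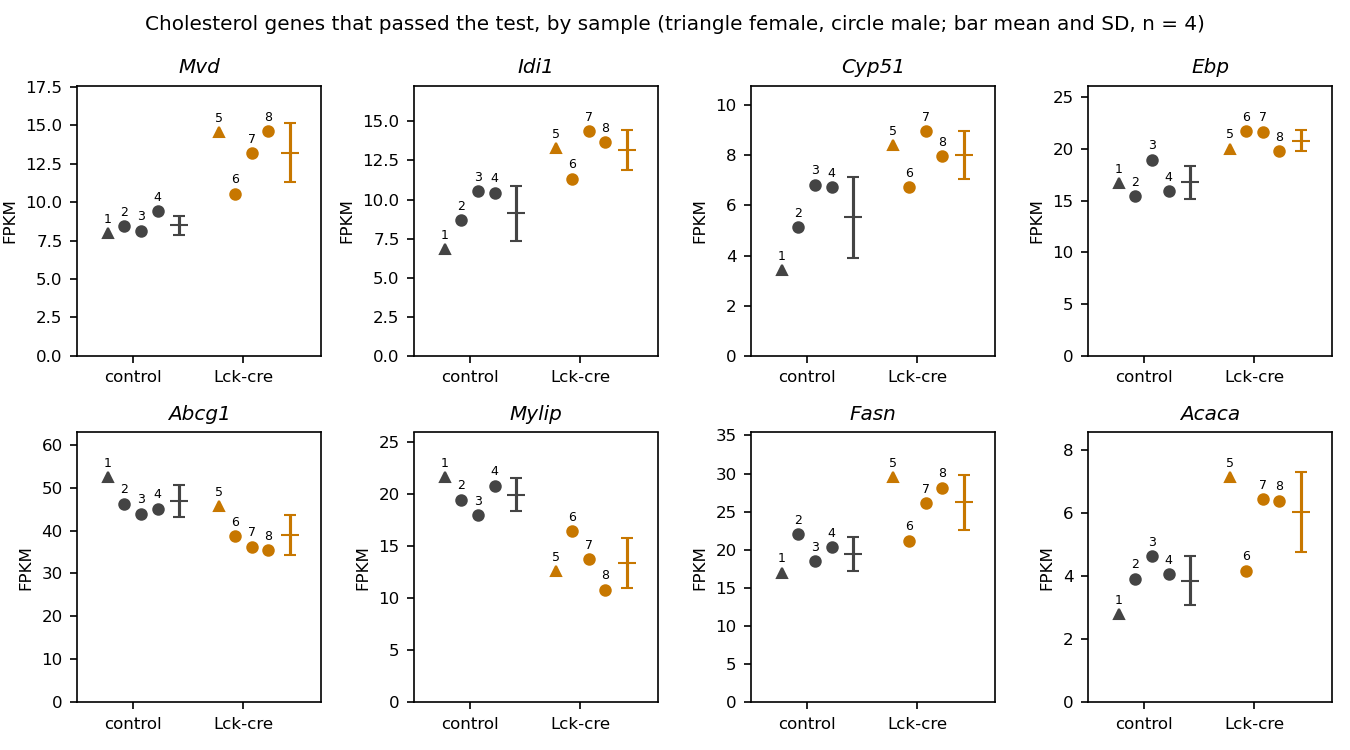
FPKM (vertical axes, from 0) of the 8 cholesterol genes that passed the test, by sample, with numbers for replicates, triangles for females, circles for males and bars for the mean and SD (n = 4). Groups are apart for Mvd, Idi1, Ebp and Mylip, and they overlap for Cyp51, Abcg1, Fasn and Acaca.

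None of the 5 genes of SREBP and its control passed the test in limma (1 higher and 1 lower at an unadjusted p under 0.05). Srebf2, which encodes the SREBP that chiefly drives sterol synthesis, had 73.8, 78.7, 97.0 and 95.01 FPKM in the controls and 87.3, 91.4, 98.1 and 80.5 FPKM in Lck-cre. Srebf1, whose products chiefly drive fatty acid synthesis, had 64.9, 60.9, 67.7 and 68.1 FPKM in the controls and 69.4, 68.1, 66.5 and 62.4 FPKM in Lck-cre. The groups overlapped for both, and the intervals of the log2 change ran from -0.15 to 0.27 for Srebf2 and from -0.12 to 0.17 for Srebf1. Both factors act as proteins released by cleavage, which RNA levels do not measure. Srebf1 shares 109 bases with Rai1 on the opposite strand and 80 with Mir6921 on the same strand. The mean of Rai1 was 67.7 FPKM in the controls and 50.5 FPKM in Lck-cre. The ratio of Srebf2 to Srebf1 ranged from 1.14 to 1.43 among controls and from 1.26 to 1.48 among Lck-cre samples (exact permutation test over 70 assignments, p = 0.771).

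Scap, the sterol-sensing escort of SREBP, had 34.9, 33.9, 33.0 and 33.8 FPKM in the controls and 38.1, 38.2, 35.1 and 39.7 FPKM in Lck-cre. All Lck-cre samples were higher, by a log2 change of 0.15 (adjusted p = 0.0832). Insig1, itself an SREBP target whose protein retains SCAP, had 18.6, 19.2, 25.1 and 33.6 FPKM in the controls and 31.9, 24.04, 26.4 and 26.5 FPKM in Lck-cre. The controls spread widely around the Lck-cre samples, and the interval of the log2 change was -0.20 to 0.60. Insig2, the second retention protein, had 9.60, 8.92, 8.61 and 7.60 FPKM in the controls and 7.32, 7.88, 6.35 and 7.11 FPKM in Lck-cre. Only Lck-cre replicate 6 reached into the controls, and its log2 change of -0.26 missed the threshold (adjusted p = 0.0615 in limma). Insig2 passed on TPM (adjusted p = 0.0353), under quantile (0.0476) and median-of-ratios scaling (0.0448), and without Lck-cre replicate 6 (0.0280).

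The ratio of Insig1 to Insig2 was 1.94, 2.15, 2.92 and 4.43 in the controls and 4.35, 3.05, 4.15 and 3.73 in Lck-cre. Control replicate 4 was the highest sample, the other controls were the lowest, and the exact two-sided permutation test gave p = 0.2 (0.4 adjusted over 2 ratios), where the smallest p possible is 0.0286. The ratios were chosen after the values were seen.

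The 24 SREBP targets among these genes are the 18 enzymes with Insig1, Srebf2, Stard4, Fasn, Acaca and Scd2. Of these 6 rose (25.0%, beside 15.4% of all genes) and none fell, while on TPM 3 rose and 2 fell. Of the 24, 2 rose when control replicate 2, control replicate 4 or Lck-cre replicate 7 was left out, 3 without Lck-cre replicate 8 and 0 without either female. Over all genes, 834 rose without control replicate 2, 1303 without control replicate 4, 1104 without Lck-cre replicate 7 and 1287 without Lck-cre replicate 8. Without control replicate 1 it was 426 and without Lck-cre replicate 5 it was 408, beside 1901 with all samples. At an unadjusted p under 0.05, 11 of the 24 were higher (45.8%, beside 23.4% of all genes) and 1 was lower (4.17%, beside 17.97%). The log2 change was above 0 in 21 of 24 (87.5%, beside 52.0% of all genes tested), with a median of 0.25. Among those 21, the sign changed in 6 of 19 alternatives for Srebf2, 5 for Stard4 and for Pmvk, 3 for Dhcr7 and 2 for Tm7sf2. Msmo1, below 0 with all samples, changed sign in 2. The mean over the 24 genes of log2(FPKM + 0.5), relative to the control mean, was -0.17, -0.07, 0.16 and 0.09 in the controls and 0.26, 0.13, 0.31 and 0.22 in Lck-cre. Lck-cre replicate 6 was below control replicate 3, so the groups overlapped on this mean.

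Among the samples, control replicate 1 was the lowest of 8 in 14 of the 24 SREBP targets. Lck-cre replicate 6 was the lowest of its group in 13, including Mvd, Idi1, Cyp51, Fasn and Acaca, and replicate 7 was the highest of its group in 12. The 18 enzymes alone ran from -0.15 to 0.17 in the controls and from 0.17 to 0.34 in Lck-cre on the same scale. The genes of S phase and mitosis had -0.26, 0.01, 0.10 and 0.15 in the controls and 0.62, 0.40, 0.63 and 0.83 in Lck-cre. There too control replicate 1 was the lowest sample and Lck-cre replicate 6 the lowest of its group.

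**Figure D3:**
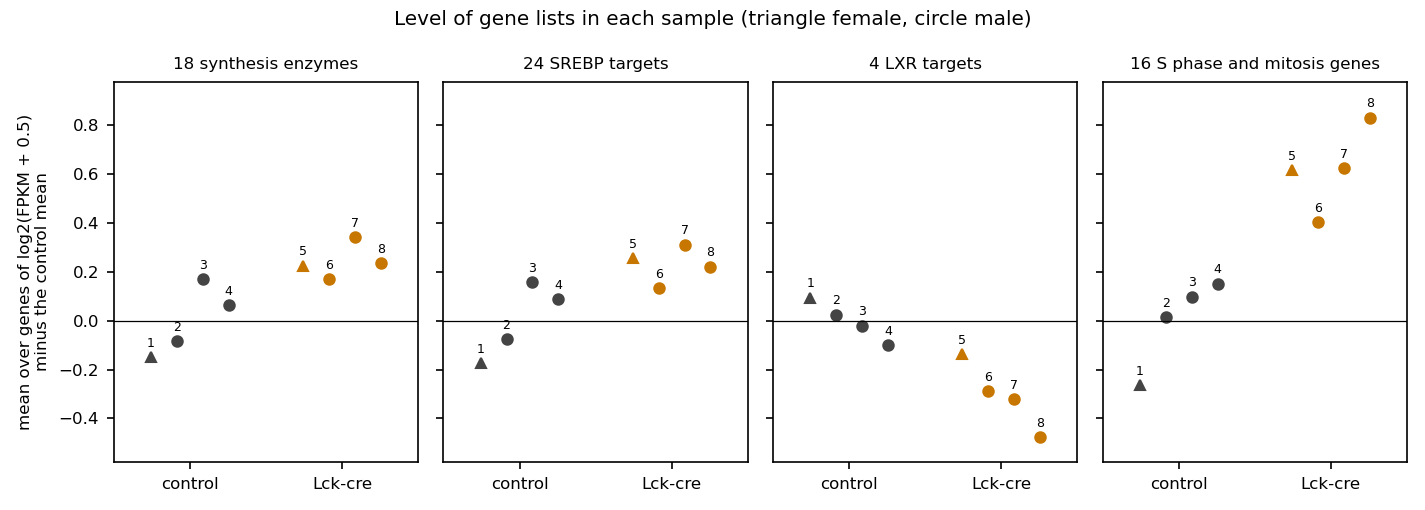
Mean over each gene list of log2(FPKM + 0.5), relative to the control mean (vertical axis), in each sample (numbers for replicates, triangles for females, circles for males). SREBP targets overlap between the groups (highest control 0.16, lowest Lck-cre 0.13), and the 4 LXR targets do not (lowest control -0.10, highest Lck-cre -0.14).

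On the export side, the 4 genes of LXR and export all had log2 changes below 0, and 2 of them, Abcg1 and Mylip, fell (2 of 4, beside 10.4% of all genes). Nr1h2, the LXR beta receptor, was among the highest of the 34 genes, with 125, 111, 113 and 127 FPKM in the controls and 115, 121, 101 and 116 FPKM in Lck-cre. The groups overlapped, and the log2 change was -0.07 (adjusted p = 0.515). Nr1h3, LXR alpha, was below the filter, with means of 1.04 and 0.806 FPKM.

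Mylip (ENSMUSG00000038175.11, plus strand of chromosome 13 at 45543218 to 45565498), an LXR target whose ubiquitin ligase removes lipoprotein receptors from the cell surface, had 21.6, 19.4, 17.9 and 20.8 FPKM in the controls. The Lck-cre samples had 12.6, 16.4, 13.7 and 10.8 FPKM. All were below all controls, and Lck-cre replicate 6 was the nearest. The mean fell from 19.9 ± 1.59 to 13.4 ± 2.35 FPKM (SD, n = 4), to 0.671 of the control level (log2 change -0.57, interval -0.84 to -0.30, adjusted p = 0.0137 in limma). Without either female the log2 change was -0.51 (adjusted p = 0.0646 and 0.064).

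Abcg1 (ENSMUSG00000024030.8, plus strand of chromosome 17 at 31276649 to 31336962), an ABC transporter of the LXR pathway that moves cellular cholesterol out to lipoproteins, had 52.3, 46.2, 43.9 and 45.1 FPKM in the controls. In Lck-cre it had 45.6, 38.7, 36.2 and 35.4 FPKM. The females were the highest of each group, and the Lck-cre female reached into the range of the controls. The mean fell from 46.9 ± 3.75 to 39.0 ± 4.63 FPKM (SD, n = 4), with a log2 change of -0.27 (interval -0.40 to -0.14, adjusted p = 0.0138 in limma). Without the control female or the Lck-cre female it was -0.29 (adjusted p = 0.0512 and 0.0513).

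Abca1, the transporter that loads cholesterol onto apolipoprotein acceptors, had 4.64, 5.12, 4.596 and 2.92 FPKM in the controls and 4.39, 2.48, 3.02 and 2.65 FPKM in Lck-cre. Control replicate 4 lay with the Lck-cre samples and Lck-cre replicate 5 near the controls. The log2 change of -0.41 (interval -0.78 to -0.03) missed the threshold (adjusted p = 0.0954 in limma), and passed without control replicate 4 (log2 change -0.54, adjusted p = 0.0428).

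The 4 LXR targets (Abca1, Abcg1, Mylip and Srebf1) had a median log2 change of -0.34, beside 0.01 over all genes tested, with Srebf1 the only one above 0. Their mean relative to the control mean was 0.10, 0.02, -0.02 and -0.10 in the controls and -0.14, -0.29, -0.32 and -0.48 in Lck-cre. The groups did not overlap on this mean, and on TPM they did not overlap either (lowest control -0.09, highest Lck-cre -0.18). On the median over the 4 genes they overlapped, with 0.006 in Lck-cre replicate 5 and -0.025 in control replicate 2. On TPM that median was -0.035 in Lck-cre replicate 5 and -0.063 in control replicate 3. Taken singly, Mylip alone had groups that did not overlap.

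Of the 4 genes of transport and storage none passed the test in limma (1 higher and 1 lower at an unadjusted p under 0.05). Npc2, the soluble lysosomal protein that hands cholesterol on, had 55.2, 49.7, 52.3 and 51.8 FPKM in the controls and 64.0, 59.1, 62.7 and 50.5 FPKM in Lck-cre. Lck-cre replicate 8 lay among the controls and the other 3 above them (log2 change 0.17, adjusted p = 0.114, and 0.0342 without Lck-cre replicate 8). Soat1, which esterifies cholesterol for storage, had 36.1, 38.9, 30.0 and 37.0 FPKM in the controls and 31.2, 33.3, 25.7 and 30.0 FPKM in Lck-cre. Control replicate 3 lay among the Lck-cre samples (log2 change -0.24, adjusted p = 0.113, and 0.0474 without control replicate 3). Npc1, the membrane partner of Npc2, and Stard4, a soluble sterol carrier, had log2 changes of -0.10 and 0.06 (adjusted p = 0.328 and 0.691), and Npc1 shares 967 bases with Rmc1 on the opposite strand.

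Fatty acid synthesis, which SREBP also drives, held 3 genes, of which 2 rose (66.7%, beside 15.4% of all genes). Acaca (ENSMUSG00000020532.19, plus strand of chromosome 11 at 84020498 to 84292477), acetyl-CoA carboxylase, had 2.79, 3.91, 4.63 and 4.07 FPKM in the controls and 7.12, 4.17, 6.43 and 6.39 FPKM in Lck-cre. Fasn (ENSMUSG00000025153.10, minus strand of chromosome 11 at 120696672 to 120715373), fatty acid synthase, had 17.01, 22.1, 18.5 and 20.3 FPKM in the controls and 29.5, 21.2, 26.1 and 28.2 FPKM in Lck-cre. In both genes Lck-cre replicate 6 lay within the range of the controls and the other 3 above them. The mean went from 3.85 ± 0.770 to 6.03 ± 1.28 FPKM for Acaca (SD, n = 4), 1.57-fold (log2 change 0.58, interval 0.17 to 0.99, adjusted p = 0.0437 in limma). For Fasn it went from 19.5 ± 2.19 to 26.2 ± 3.63 FPKM (SD, n = 4), 1.35-fold (log2 change 0.42, interval 0.15 to 0.68, adjusted p = 0.0317).

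The call of Acaca ended in 12 of 19 alternatives (adjusted p = 0.0507 to 0.168), including those that left out control replicate 1, 2 or 4 or Lck-cre replicate 5, 7 or 8, and that of Fasn in 10 (adjusted p = 0.0565 to 0.129), including those that left out control replicate 1, 3 or 4 or Lck-cre replicate 5, 7 or 8. Both were lost on TPM. Without either female the log2 change was 0.37 for Acaca and 0.30 for Fasn. Scd2, the stearoyl-CoA desaturase, was the other gene of this group and the highest of the 34 in the controls, with 113, 112, 129 and 130 FPKM there and 117, 104, 107 and 98.7 FPKM in Lck-cre. The groups overlapped (log2 change -0.18, adjusted p = 0.126, and 0.0469 on TPM).

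Other genes of the pathway were taken from 7 lists of 96 genes. Their counts stand beside 15.4% of all genes higher, 10.4% lower and 25.8% called. Of 10 further genes of sterol synthesis 3 rose and none fell. Tmem97, an endoplasmic reticulum protein regulated by sterol, rose from 6.78 ± 1.72 to 10.6 ± 0.719 FPKM (log2 change 0.64, adjusted p = 0.0119 in limma), and Erg28, a scaffold of the demethylating enzymes, from a control range of 13.6 to 17.2 FPKM to a Lck-cre range of 18.4 to 19.6 FPKM (0.33, adjusted p = 0.0196). Of 14 genes of the isoprenoid branch beside sterols 3 rose (21.4%, beside 15.4% of all genes) and none fell, and 8 had a log2 change above 0 (57.1%, beside 52.0%). Dhdds, a subunit of the transferase that makes dolichol precursors, rose from 15.5 ± 0.718 to 20.5 ± 0.882 FPKM (log2 change 0.39, adjusted p = 0.00798), and Coq2, of ubiquinone synthesis, from 12.2 ± 1.40 to 16.95 ± 1.79 FPKM (0.46, adjusted p = 0.0164).

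Of 16 genes of SREBP processing and sterol-regulated degradation 1 rose and 3 fell, and these 4 called genes (25.0%) are close to the 25.8% of all genes. Rnf145, a sterol-sensitive ubiquitin ligase of the endoplasmic reticulum, had 109, 90.7, 89.6 and 81.0 FPKM in the controls and 62.8, 80.3, 65.5 and 57.1 FPKM in Lck-cre. The groups did not overlap, with Lck-cre replicate 6 nearest to the controls (log2 change -0.48, adjusted p = 0.0198 in limma). Of the 6 listed genes for the coat of vesicles that leave the endoplasmic reticulum, Sec23b rose (log2 change 0.27, adjusted p = 0.0157) and Sec24c fell (-0.23, adjusted p = 0.0257). The other 4 did not pass, with log2 changes of 0.33 for Sec24d (adjusted p = 0.0505, groups not overlapping), 0.17 for Sar1b, 0.01 for Sec23a and -0.03 for Sar1a.

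Among 9 tested LXR partners and further LXR targets none rose and 1 fell (11.1%, beside 10.4% of all genes). The gene was Arl4c, a small GTPase gene induced by LXR. It had 61.7, 52.2, 54.6 and 61.2 FPKM in the controls and 40.5, 47.7, 39.5 and 31.2 FPKM in Lck-cre. All Lck-cre samples were below all controls (log2 change -0.54, adjusted p = 0.0153 in limma). Of 16 tested genes of sterol transport and uptake 1 rose and 3 fell (4 called, 25.0%, beside 25.8% of all genes). Scarb1, a receptor for high-density lipoprotein, rose from 6.86 ± 0.869 to 10.4 ± 0.930 FPKM (log2 change 0.57, adjusted p = 0.00932), while Gramd1a, a carrier of plasma membrane cholesterol, fell (log2 change -0.36, adjusted p = 0.0349).

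Of 12 tested further genes of SREBP-1 type lipid synthesis 4 rose and none fell (33.3%, beside 15.4% of all genes). Fads2, a fatty acid desaturase, had 7.76, 10.6, 12.9 and 13.0 FPKM in the controls and 20.5, 17.5, 20.1 and 21.8 FPKM in Lck-cre. The groups did not overlap, and the log2 change of 0.85 exceeded that of each of the 34 cholesterol genes (adjusted p = 0.0075 in limma). Fabp5, a fatty acid carrier, rose from 12.4 ± 1.77 to 18.5 ± 2.79 FPKM (log2 change 0.56, adjusted p = 0.00895). Of 2 tested oxysterol genes none passed in limma, also with no adjustment (Hsd3b7, log2 change 0.39, adjusted p = 0.305).

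Of the 12 called genes named from these lists, Dhdds, Scarb1, Fads2 and Fabp5 kept their call in all 19 alternatives, with adjusted p of at most 0.0438, 0.0482, 0.0459 and 0.0459. The other 8 lost it without control replicate 1 and without Lck-cre replicate 5. Erg28, Coq2, Sec23b, Rnf145, Sec24c and Gramd1a also lost it without control replicate 2, Sec24c and Gramd1a without control replicate 4 or Lck-cre replicate 7, and Gramd1a without Lck-cre replicate 8. The highest adjusted p reached was 0.0542 for Tmem97, 0.0784 for Erg28, 0.0696 for Coq2, 0.0592 for Sec23b, 0.0876 for Rnf145, 0.103 for Sec24c, 0.0681 for Arl4c and 0.13 for Gramd1a.

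**Figure D4:**
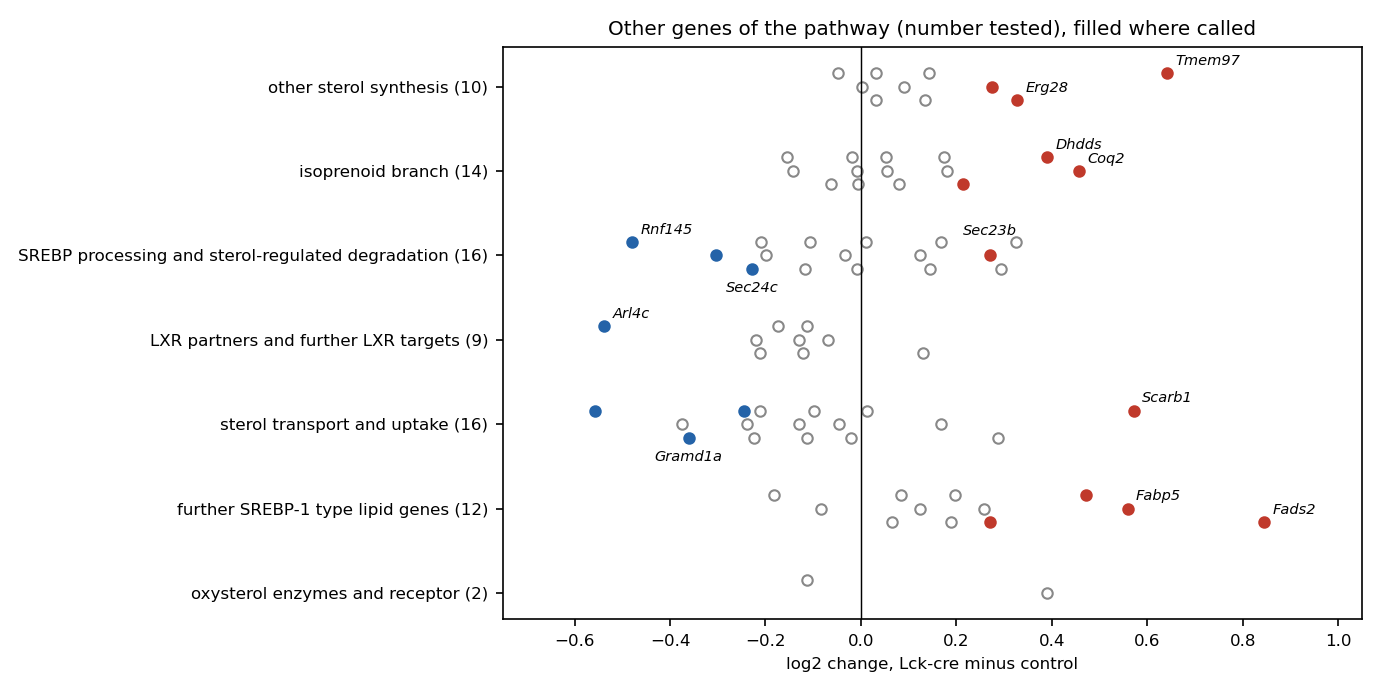
Log2 change (Lck-cre minus control, horizontal axis) of the tested genes of 7 further lists of the pathway (vertical axis, number tested in parentheses), with filled points where the adjusted p was under 0.05 and names for the genes described. Filled points are on the right only for other sterol synthesis, the isoprenoid branch and SREBP-1 type lipid genes, and on both sides for SREBP processing and for transport and uptake.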

How the data were processed

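The authors deposited 1 table per sample with FPKM, TPM and coverage of each gene, per the file headers. The submitters' processing notes name HISAT and Bowtie2, with no version or role. No source used here gives the build, annotation, quantifier or strandedness. Deposited TPM sums to 1000000 in each sample, and FPKM to 413835 to 437426 in the controls and 437778 to 457145 in Lck-cre. The tables used here hold no counts, so depth is unknown. Deposited coverage, the signal per base, was 7.53 to 7.89 per unit of FPKM. Samples of a group correlated at 0.983 to 0.992 (Pearson, log2 values).

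Entries of 1 gene ID were summed. The fit took each gene that reached 1 FPKM in 4 or more samples, on log2(FPKM + 0.5), in limma 3.58.1 (R 4.3.3, trend, terms for sex and genotype, two-sided, Benjamini-Hochberg over 12337 genes), after a check on simulated data. Log2 changes are on that scale, which understates changes of low genes. Folds are ratios of mean FPKM. Python 3.11.15, pandas 2.3.3, NumPy 2.4.6, SciPy 1.17.1 and matplotlib 3.10.9 made summaries and figures.

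The cholesterol genes and lists were chosen with earlier results of these data known. All 34 are named, and of each pathway list up to 2 genes called in each direction with the smallest adjusted p, or the gene with the smallest p. The result of 1 gene that this rule takes is not reported here. List genes were matched by symbol (195) or ID (1). Other marker lists had sums, controls and then Lck-cre, of 12.4 to 16.9 and 7.86 to 15.5 FPKM (B cell), 3.48 to 5.61 and 3.99 to 5.33 (thymic epithelium), 44.0 to 53.6 and 51.6 to 58.6 (fibroblast and endothelium) and 0.0241 to 0.123 and 0 to 0.313 (erythroid). Promoters are from RefSeq, and those of Fdps, Fdft1, Sqle, Abcg1, Stard4, Npc1 and Scd2 were not matched. Alternatives were TPM (with its own minimum of 1 and, added after the data were seen, on the FPKM-filtered genes), quantile and median-of-ratios scaling, pseudocounts of 0.1 and 1, no filter, no sex term, no trend, males only, a mean FPKM filter, each sample left out, and an adjusted p under 0.01.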

Additional observations from a re-analysis of the deposited data

Results flagged for a closer look

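In 2 of the 68 groups of 4 samples examined (34 genes in 2 groups), 1 sample stood apart from the others by more than Dixon's 95% critical value for the gap as a share of the group's range. Chance gives about 1 in 20 groups. Lss, lanosterol synthase, stood at 5.02 FPKM in Lck-cre replicate 7, a gap of 0.897 of the range, while the other Lck-cre samples stood at 4.61 to 4.65 FPKM. Dhcr7, the last reductase, stood at 40.3 FPKM in control replicate 3, a gap of 0.927 of the range, while the other controls stood at 35.03 to 35.4 FPKM. Neither gene passed the test between the groups.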

How the results depend on the processing

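None of the 8 called cholesterol genes changed sign under an alternative that was run. Of those not called, Pmvk, Tm7sf2, Msmo1, Dhcr7, Srebf1, Srebf2 and Stard4 changed sign in some. Of 646 values of single genes 570 kept their side of the threshold, 57 lost a call and 19 gained one. On TPM 2117 of 14015 genes were lower (2067 with TPM on the 12337 genes of the FPKM filter, chosen after seeing the data), and on both sets 3 cholesterol genes were higher and 5 lower, and among SREBP targets 3 were higher and 2 lower. With no filter, which admitted 28851 genes, 696 of these were higher and 360 lower. There 1 cholesterol gene was higher and 1 lower, 1 SREBP target was higher and 1 LXR target lower. With males only 407 and 208 of the 12089 genes then tested passed. There 0 cholesterol genes passed in limma in either direction, with 0 SREBP targets higher and 0 LXR targets lower. At an unadjusted p under 0.05, 5 cholesterol genes were higher and 5 lower, and the share of all genes at that threshold was not counted there. At an adjusted p under 0.01, 384 and 128 of all genes passed, 1 cholesterol gene higher (Mvd) and 0 lower, with 1 SREBP target higher and 0 LXR targets lower. The cause of these differences was not tested.

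With each sample left out in turn, the genes higher in Lck-cre numbered 408 to 2193 and those lower 215 to 1672. Cholesterol genes numbered 0 to 9 higher and 0 to 3 lower, SREBP targets 0 to 9 higher and 0 to 0 lower, and LXR targets 0 to 0 higher and 0 to 3 lower. No paired analysis was run because the sample titles name no pairs. The control replicates are numbered 1 to 4 and the Lck-cre replicates 5 to 8, which does not say whether samples were paired. Precision is limited by 4 samples in each group and by the absence of counts from the tables used here. Groups differ in Lck-cre and in the expressed STING allele together.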
